A study of Mus musculus with 2 samples.

Results

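Spleen RNA of untreated male mice was hybridised to 2 one-colour Agilent arrays, 1 from animals labelled Loxl3 knockout (Loxl3-/-) and 1 from wild-type (Loxl3+/+) animals. Loxl3 encodes a lysyl oxidase, an enzyme family that crosslinks collagen and elastin. The labels state no age and do not say if the RNA was pooled from more than 1 mouse. The genes described here are ligands and receptors of the TNF superfamily, chosen as a fixed list of 34 genes that includes factors of spleen organisation and of B cell survival. A probe was assigned to a gene where its accession matched a RefSeq transcript of that gene. This found 40 probes for 33 of the 34 genes, out of 20655 genes named on the array, and no probe's accession mapped to Tnfsf13. A gene is called measured where a probe was well above background on at least 1 array, by the scanner software's own call. This held for 29 of the 33 genes, all on both arrays. The other 4, Cd40lg, Cd70, Tnfsf4 and Tnfrsf8, were not well above background on either array.

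TNF superfamily ligands are mostly trimeric membrane proteins, and some are shed as soluble factors. Their receptors bind TRAF adaptors, which lead to NF-kB, or carry a death domain that can lead to caspases. In the spleen, TNF and lymphotoxin made by B cells act on stromal cells and sustain the chemokines that keep B and T cell zones apart. BAFF keeps B cells alive, and receptors such as OX40, GITR and 4-1BB costimulate activated and regulatory T cells.

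Signals are background-corrected intensities. A difference is the log2 signal of the knockout-labelled array minus that of the wild-type array, after each array's 75th percentile was subtracted on the log2 scale. That percentile was a signal of 1400 in knockout-labelled spleen and 974 in wild-type spleen, so equal signals on both correspond to a difference of −0.52. A value after ± is the scanner software's error per spot carried to the difference, and it holds no variation between animals. Each group is a single array, which leaves 0 residual degrees of freedom, and no difference below was tested. The Loxl3 probe itself had a signal of 125 in knockout-labelled spleen and 117 in wild-type spleen (difference −0.43 ± 0.29). The sources used here do not say whether it lies in the deleted part of the gene, and the group is therefore called knockout-labelled. Genes of the exocrine pancreas were far brighter on the knockout-labelled array, with all 10 markers at least 2-fold higher (median difference 4.14), and 9 of 11 neutrophil and precursor markers were at least 2-fold lower (median −1.62).

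As a family, the TNF ligands and receptors had a median difference close to that of all genes. Their median difference was −0.10 over the 29 measured genes, beside −0.09 over all 13716 measured genes. Bright genes lay lower: 1492 genes with a mean level at least 8 times the 75th percentile, Ltb, Tnfrsf9 and Tnfrsf13c among them, had a median of −0.34, against −0.06 for the other 12224. One receptor gene, Tnfrsf21, was higher by 2-fold or more in knockout-labelled spleen (1 of 29, against 2.11% of all genes), and 1 ligand gene, Tnfsf12, was lower by 2-fold or more (1 of 29, against 1.98%). At 1.5-fold, Tnfrsf21 was again the only gene higher (1 of 29, against 7.49% of all genes), and Tnfsf12, Tnfrsf9 and Tnfrsf4 were lower (3 of 29, against 9.29%). The difference was larger than 2 times the software error for 7 of 29 genes (Tnfrsf21, Tnf, Tnfsf12, Tnfrsf9, Tnfrsf4, Tnfrsf18 and Tnfsf14), against 27.1% of all genes. These shares are near those of the whole array. In bulk RNA, fewer cells of a type and less RNA per cell cannot be told apart, which holds for every value below.

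**Figure D1:**
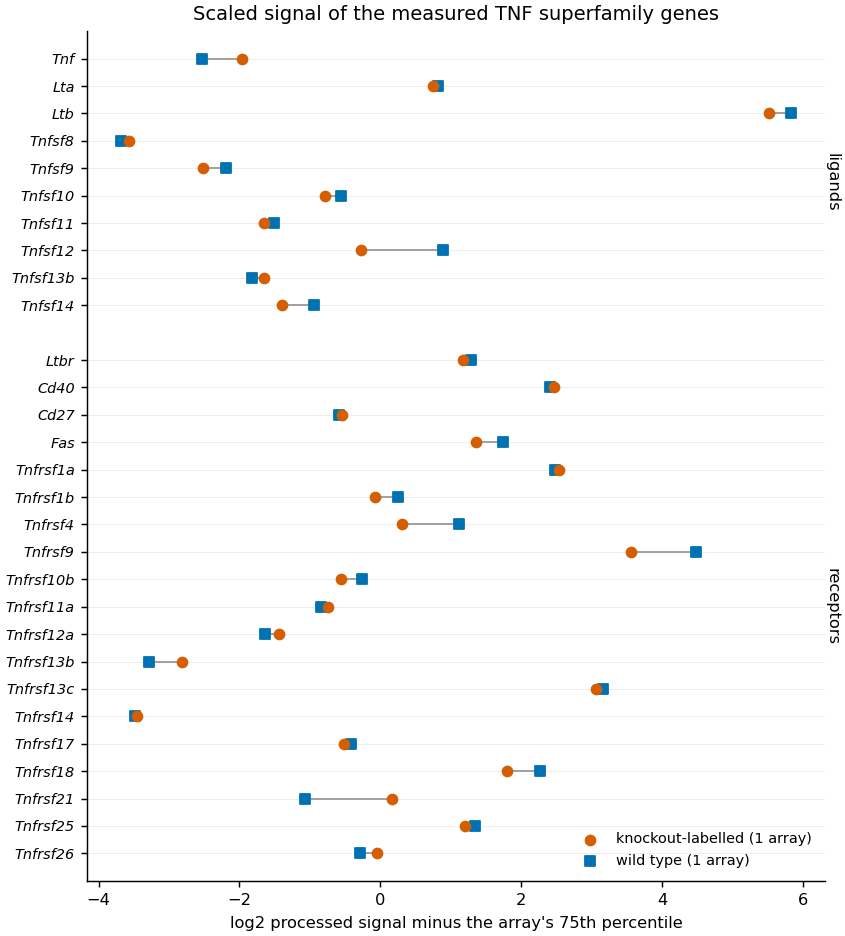
Scaled signal (log2 processed signal minus the array's 75th percentile, x axis) of the 29 measured TNF superfamily genes, with the knockout-labelled array as circles and the wild-type array as squares, 1 array each. Most pairs lie close together; the widest gaps are those of Tnfrsf21 (1.23), Tnfsf12 (−1.16), Tnfrsf9 (−0.93) and Tnfrsf4 (−0.81), and levels of different genes come from different probes and cannot be set against each other.

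**Figure D2:**
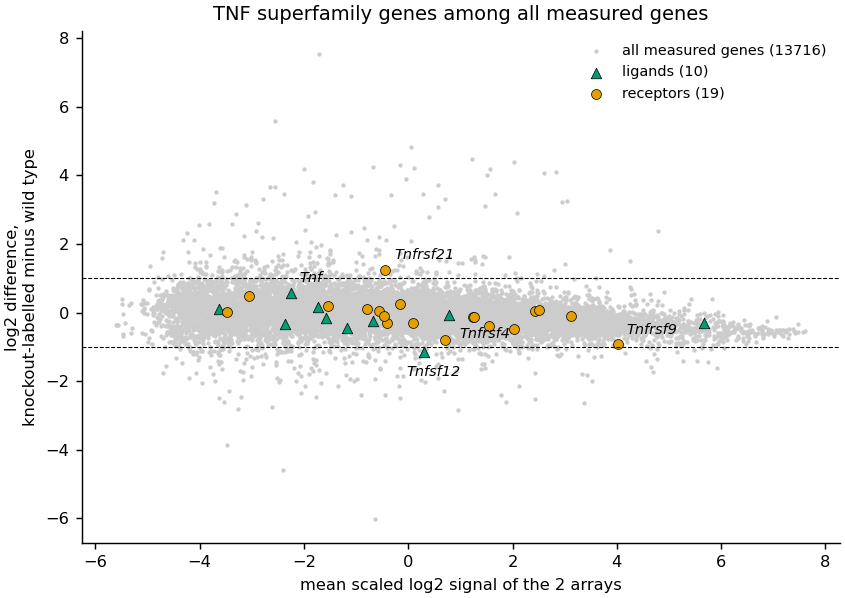
Difference between the arrays (log2, knockout-labelled minus wild type, y axis) against the mean scaled log2 signal (x axis) for all 13716 measured genes in grey, with 10 TNF ligands as triangles and 19 receptors as circles; dashed lines mark 2-fold. The ligands and receptors lie within the grey cloud, and Tnfrsf21 and Tnfsf12 pass the dashed lines.

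Tnfrsf21 encodes death receptor 6, a receptor with a death domain known in mice to restrain T and B cell responses. Its probe had a signal of 1577 in knockout-labelled spleen and 467 in wild-type spleen. The difference was 1.23 ± 0.21, or 2.35-fold, and it ranked 180 from the top of 13716 genes. It rests on 1 spot of 1 probe per array. The 250 bases before the RefSeq start of Tnfrsf21 are given here, as the reference sequence upstream of the family's largest positive difference, on GRCm38.p6 at chr17:43016305-43016554, plus strand.
Tnfrsf21: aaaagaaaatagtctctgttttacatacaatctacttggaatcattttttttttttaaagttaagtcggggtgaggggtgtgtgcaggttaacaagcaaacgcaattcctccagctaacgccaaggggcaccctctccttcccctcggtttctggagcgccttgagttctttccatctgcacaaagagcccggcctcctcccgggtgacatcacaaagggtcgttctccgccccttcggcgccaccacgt
No NF-kB, AP-1 or TATA letters, as spelled out below, were found in this window.

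The other receptors of the death-domain and TRAIL group differed by less. Tnfrsf10b, the mouse receptor of the apoptosis ligand TRAIL, had signals of 955 in knockout-labelled spleen and 814 in wild-type spleen, a difference of −0.29 ± 0.21. Its ligand gene Tnfsf10 had signals of 811 in knockout-labelled spleen and 664 in wild-type spleen, a difference of −0.23 ± 0.21. Fas, the receptor through which Fas ligand kills lymphocytes, had signals of 3582 in knockout-labelled spleen and 3244 in wild-type spleen (−0.38 ± 0.20). Tnfrsf25, a death-domain receptor that costimulates T cells, was at −0.14 ± 0.20, and Tnfrsf26, a mouse gene next to the decoy TRAIL receptor genes Tnfrsf22 and Tnfrsf23, was at 0.24 ± 0.21. Of the 7 measured genes in this group, Tnfrsf1a included, 3 were above 0 and 4 below, against 40.7% of all genes above 0. The group median was −0.14, beside −0.09 over all genes.

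Tnfsf12 encodes TWEAK, which acts on epithelial, endothelial and stromal cells through its receptor Fn14, the product of Tnfrsf12a. Its brighter probe had a signal of 1157 in knockout-labelled spleen and 1797 in wild-type spleen, a difference of −1.16 ± 0.21, or 2.23-fold lower. Its other probe went the opposite way, with signals of 126 in knockout-labelled spleen and 64.4 in wild-type spleen and a difference of 0.44 ± 0.31. The probes are annotated with the same accession and were 1.60 apart on the log2 scale, with an error of 0.37, so the direction of Tnfsf12 depends on the probe. The median of both probes was −0.36, under 2-fold. Tnfsfm13, a readthrough gene that joins Tnfsf12 to its neighbour Tnfsf13, shares sequence with both, and its 2 probes were at −0.30 ± 0.20 and −0.06 ± 0.22. Tnfrsf12a had signals of 515 in knockout-labelled spleen and 313 in wild-type spleen, a difference of 0.20 ± 0.22.

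Of the receptors that costimulate activated T cells, those for 4-1BB and OX40 were lower by over 1.5-fold in knockout-labelled spleen. Tnfrsf9, encoding 4-1BB, a receptor induced on activated T and NK cells, had a signal of 16443 in knockout-labelled spleen and 21793 in wild-type spleen with its brighter probe. The difference was −0.93 ± 0.20, or 1.90-fold lower, and −0.61 once the trend with brightness was removed by loess. Its other probe had signals of 412 in knockout-labelled spleen and 408 in wild-type spleen, a difference of −0.51 ± 0.22, of the same sign. Those signals were nearly equal, so this value lies close to the −0.52 that equal signals give. Tnfrsf4, encoding OX40, was lower by 1.75-fold, with a signal of 1726 in knockout-labelled spleen and 2105 in wild-type spleen (−0.81 ± 0.20). Tnfrsf18, encoding GITR, a receptor abundant on regulatory T cells and encoded next to Tnfrsf4, had signals of 4851 in knockout-labelled spleen and 4699 in wild-type spleen (−0.48 ± 0.20). The signal of Tnfrsf18 itself was thus nearly equal on the arrays, where equal signals correspond to a difference of −0.52. Its difference lay between −0.57 and −0.30 over the alternatives.

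The ligand genes of these receptors, and the CD27 and CD30 pairs, were measured in part. Tnfsf9, the ligand gene of 4-1BB, had signals of 245 in knockout-labelled spleen and 213 in wild-type spleen (−0.32 ± 0.22), and Tnfsf4, the ligand gene of OX40, did not pass the background call on either array. Cd27, a receptor of naive and memory T cells, was at 0.05 ± 0.21 and 0.23 ± 0.21 with its 2 probes, and its ligand gene Cd70 did not pass the background call on either array. Tnfsf8, the ligand gene of CD30, was at 0.12 ± 0.29, while the CD30 gene Tnfrsf8 did not pass that call on either array. Over the costimulation group, in which Tnfrsf25 was counted too, 2 of 7 measured genes were above 0, against 40.7% of all genes. The other 5 were below, and the group median was −0.32, beside −0.09 over all genes. With scaling on each array's median 1 of the 7 was above 0, and with scaling on probes above background on both arrays 3 were.

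T cell markers were measured beside these values. Of 13 T cell markers 4 were above 0 and 9 below, with a median of −0.09, and none passed 1.5-fold. Their balance depends on the normalization: 9 were above 0 and 4 below with quantile normalization and in the deposited value table (median 0.07), and 10 above and 3 below with the loess trend removed (median 0.10). Cd3d was at −0.46 and Cd247, which only the knockout-labelled array showed above background, was higher by at least 1.41-fold. That bound, 0.50 on the log2 scale, had a software error as large, 0.50. The Cd247 signals were 85.0 in knockout-labelled spleen and 33.3 in wild-type spleen. The summed signal of the T cell markers, in units of each array's 75th percentile, was 85.6 in knockout-labelled spleen and 99.2 in wild-type spleen. Of 8 regulatory T cell markers 6 were measured, 3 above 0 and 3 below, with a median of −0.05. Their summed signal was 4.17 in knockout-labelled spleen and 4.01 in wild-type spleen. Il2ra was at −0.45 and Foxp3 at −0.35, while the highest of the 6 was at 0.31. With scaling on each array's median, quantile normalization, normexp or the deposited value table, 1 of the 6 was above 0. Itgae and Gpr83 were not measured. The part of T cell numbers in the lower values of Tnfrsf9 and Tnfrsf4 was not tested.

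The reference sequences upstream of these lower receptors are given because they hold, or lack, letters of transcription factor motifs that costimulatory receptor genes are studied for. Motifs were searched on both strands as GGNNTTTCC for NF-kB and TGANTCA for AP-1, and on the gene's strand as TATAAA, and no NF-kB, AP-1 or TATA match printed here overlaps another. Capitals mark matches, coordinates are GRCm38.p6, and both RefSeq starts of Tnfrsf9 are shown, at chr4:150919905-150920154 and chr4:150927749-150927998, with Tnfrsf4 at chr4:156013445-156013694, all on the plus strand.
Tnfrsf9 first start: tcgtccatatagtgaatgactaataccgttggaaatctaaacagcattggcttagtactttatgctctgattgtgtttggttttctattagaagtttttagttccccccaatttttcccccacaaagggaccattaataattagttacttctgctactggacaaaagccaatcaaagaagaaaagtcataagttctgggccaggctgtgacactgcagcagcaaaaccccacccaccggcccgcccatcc
Tnfrsf9 second start: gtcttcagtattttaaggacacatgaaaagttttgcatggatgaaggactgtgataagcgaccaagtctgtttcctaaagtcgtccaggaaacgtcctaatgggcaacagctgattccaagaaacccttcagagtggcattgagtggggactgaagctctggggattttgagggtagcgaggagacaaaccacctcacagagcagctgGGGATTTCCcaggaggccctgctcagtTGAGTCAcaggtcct
Tnfrsf4: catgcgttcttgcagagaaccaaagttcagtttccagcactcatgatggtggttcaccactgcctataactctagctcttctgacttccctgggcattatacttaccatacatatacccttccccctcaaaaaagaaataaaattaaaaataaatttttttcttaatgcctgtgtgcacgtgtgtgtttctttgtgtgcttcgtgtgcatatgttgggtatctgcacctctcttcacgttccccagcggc
The second Tnfrsf9 start has an NF-kB match 34 to 42 bases before it and an AP-1 match 9 to 15 bases before it. The RefSeq table held 29 promoters for 26 of the 34 genes. NF-kB letters occurred in 4 of the 29 (Ltb, Tnfrsf13b, Tnfrsf25 and Tnfrsf9), against 4.93% of all 32851 promoters. AP-1 letters occurred in 6 of the 29, against 6.75% of all promoters. A match is a description of the letters only.

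**Figure D3:**
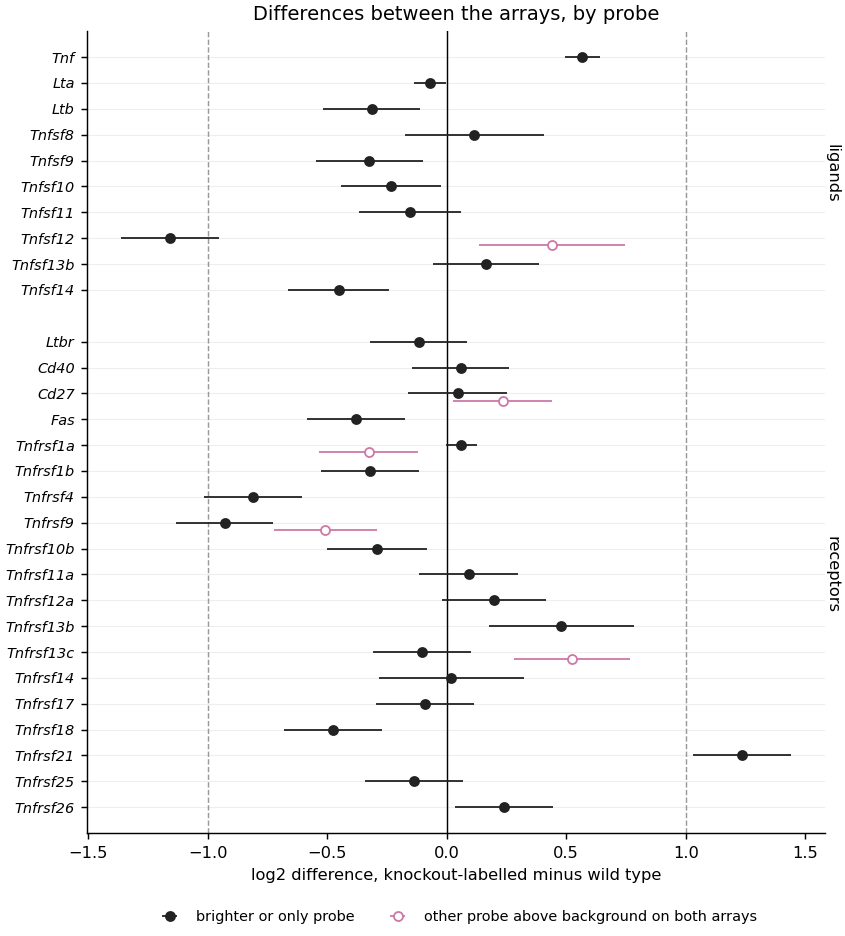
Difference between the arrays (log2, knockout-labelled minus wild type, x axis) for each measured TNF superfamily gene, with the brighter or only probe filled and a second probe, where it was above background on both arrays, open. Bars are the scanner software's error and dashed lines mark 2-fold. The 2 probes of Tnfsf12 lie on opposite sides of 0 (−1.16 and 0.44), while those of Tnfrsf9 lie on the same side.

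Genes of the TNF and lymphotoxin axis, which organises the white pulp, differed by less than 1.5-fold. Among the alternatives, Tnf passed 1.5-fold with scaling on probes above background on both arrays (0.71) and Tnfsf14 with normexp (−0.59). Tnf, the founding ligand, was printed as 10 spots per array. Its spots had a lowest, median and highest signal of 341, 358 and 378 in knockout-labelled spleen, against 159, 167 and 184 in wild-type spleen. All 10 spot positions were higher on the knockout-labelled array, by 0.46 to 0.66 and with a mean of 0.57 (SD 0.06 over positions), or 1.48-fold, and the spot ranges did not overlap. Spot ranges did not overlap for 28.6% of 269 probes printed repeatedly, and differences had 1 sign at every position for 57.2%. Spots of 1 array share its RNA and its hybridisation, so they show that the Tnf signals of these 2 arrays differ, not that the genotypes do. The promoter of Tnf, GRCm38.p6 chr17:35202008-35202257 on the minus strand, is given as a member measured with repeated spots, with its TATA letters 24 to 29 bases before the start in capitals.
Tnf: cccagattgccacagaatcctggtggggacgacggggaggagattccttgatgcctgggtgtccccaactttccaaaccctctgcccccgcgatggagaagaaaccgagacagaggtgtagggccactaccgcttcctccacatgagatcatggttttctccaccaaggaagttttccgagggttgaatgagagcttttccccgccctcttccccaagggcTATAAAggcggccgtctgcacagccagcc
TATA letters were found in 3 of the 29 promoters of the listed genes, against 7.59% of all promoters.

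Lta and Ltb encode the lymphotoxin subunits and lie on either side of Tnf in the RefSeq gene order. Lta had 9 spots with signals from 2088 to 2817 (median 2318) in knockout-labelled spleen, against 10 spots from 1338 to 2319 (median 1627) in wild-type spleen. The scaled spot ranges overlapped, 5 of 9 shared positions were higher, and the mean difference was −0.07 ± 0.07. Ltb had a signal of 64086 in knockout-labelled spleen and 55458 in wild-type spleen, a difference of −0.31 ± 0.20. Ltb was at 0.13 under quantile normalization, 0.12 with the loess trend removed and 0.14 in the deposited value table, so its direction depends on the normalization. Ltbr, the lymphotoxin beta receptor of stromal cells, had signals of 3163 in knockout-labelled spleen and 2389 in wild-type spleen (−0.12 ± 0.20).

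The receptors of TNF and the remaining ligands of this axis lay between −0.45 and 0.09. Tnfrsf1a, the widely expressed TNF receptor with a death domain, had 10 spots from 6340 to 11090 (median 7737) in knockout-labelled spleen and from 3923 to 8653 (median 4965) in wild-type spleen. Its positions differed by −0.63 to 0.42, with a mean of 0.06 and an SD of 0.31, so the spread between spots exceeded the difference. Its other probe was at −0.33 ± 0.21. Tnfrsf1b, the TNF receptor of lymphocytes and myeloid cells, had signals of 1333 in knockout-labelled spleen and 1158 in wild-type spleen (−0.32 ± 0.21). Tnfsf14, encoding LIGHT, a ligand of both Ltbr and Tnfrsf14, was at −0.45 ± 0.21, and Tnfrsf14 was at 0.02 ± 0.30. Tnfsf11, encoding RANKL, and its receptor gene Tnfrsf11a, known for osteoclast and lymph node formation, were at −0.15 ± 0.21 and 0.09 ± 0.21. Of the 10 genes in this group 4 were above 0 and 6 below, against 40.7% of all genes above 0. With scaling on each array's median 1 of the 10 was above 0, and with scaling on probes above background on both arrays 6 were.

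**Figure D4:**
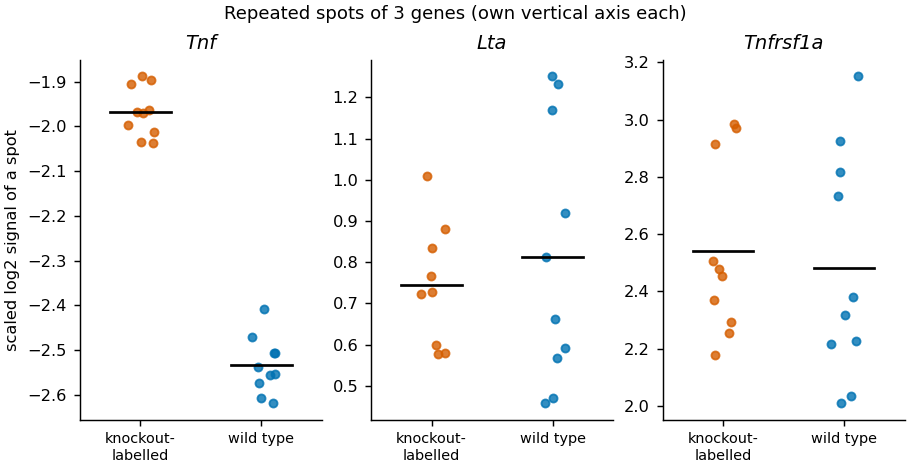
Scaled log2 signal of each spot (y axis, 1 scale per panel) for the 3 genes printed repeatedly, knockout-labelled array on the left and wild-type array on the right of each panel, with the mean as a line. Spots of Tnf are separated between the arrays, while those of Lta and Tnfrsf1a overlap.

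Genes of B cell survival and plasma cells differed by less than 1.5-fold. With scaling on probes above background on both arrays, Tnfrsf13b passed it (0.63). Tnfsf13b, encoding BAFF, had signals of 445 in knockout-labelled spleen and 276 in wild-type spleen, a difference of 0.17 ± 0.22. Tnfrsf13c, the BAFF receptor gene of B cells, was at −0.10 ± 0.20 with its brighter probe (signals of 11706 in knockout-labelled spleen and 8749 in wild-type spleen) and at 0.53 ± 0.24 with its other probe. Tnfrsf13b, encoding TACI, a receptor of BAFF and APRIL, had signals of 199.8 in knockout-labelled spleen and 99.7 in wild-type spleen (0.48 ± 0.30). A dimmer TACI probe was well above background only in knockout-labelled spleen, with signals of 81.5 in knockout-labelled spleen and 60.6 in wild-type spleen, and gives no fold. Tnfrsf17, encoding the plasma cell receptor BCMA, was at −0.09 ± 0.21. Cd40, the receptor through which T cells help B cells, had signals of 7746 in knockout-labelled spleen and 5179 in wild-type spleen (0.06 ± 0.20), and its ligand gene Cd40lg did not pass the background call on either array. Of the 5 measured genes 3 were above 0 and 2 below, with a median of 0.06, against 40.7% of all genes above 0. With scaling on each array's median 2 of the 5 were above 0, and with scaling on probes above background on both arrays all 5 were. Beside them, 7 of 11 B cell markers were above 0 (median 0.20), with Fcer2a at 1.13 and Cd79a at 0.75, and 4 of 7 plasma cell markers were (median 0.15), with Irf4 at 0.59 and Sdc1 at 0.43. The summed B cell marker signal, in units of the 75th percentile, was 152 in knockout-labelled spleen and 182 in wild-type spleen, while the median of the markers' differences was above 0.

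Across the family, 5 genes had 2 probes that were well above background on both arrays, and in 3 of them the probes were of opposite sign (Tnfsf12, Tnfrsf1a and Tnfrsf13c). The probes lay apart by more than 2 times their error in 1 of the 5, Tnfsf12. Of the 29 measured genes 12 were above 0 (against 40.7% of all genes), 3 of 10 ligands and 9 of 19 receptors. These counts depend on the scaling: 7 of the 29 genes and 4 of the 19 receptors were above 0 with scaling on each array's median, against 17 and 13 with scaling on probes above background on both arrays.

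Of 24 TRAF and death domain adaptor genes downstream of the receptors, all measured, none passed 2-fold and 1 gene in each direction passed 1.5-fold. Their median was 0.04, and −0.05 to 0.20 over the alternatives. Traf4, a TRAF family adaptor, was at −0.82 ± 0.06, Traf6, which also serves Toll-like receptors, at 0.64 ± 0.22 and Traf2, the TRAF of TNF receptor complexes, at −0.53 ± 0.20, although a dimmer Traf2 probe was at 0.04. Of 18 NF-kB and IKK genes 17 were measured, none passed 1.5-fold and the median was −0.02, and −0.11 to 0.13 over the alternatives. Among them Tab2 and Tab3, adaptors of the kinase TAK1, were at 0.51 ± 0.20 and −0.51 ± 0.21, and the kinase gene Ikbkb was at 0.45 ± 0.20. The feedback inhibitor genes Nfkbia and Tnfaip3, which NF-kB induces, were at −0.19 ± 0.20 and −0.34 ± 0.20. Nfkbia is one of the bright genes described above, whose median was −0.34. From the same list as Nfkbia, Nfkbie was at −0.02 ± 0.20 and Nfkbiz at 0.26 ± 0.24. Nfkbib was at 0.16 ± 0.20 with its brightest probe and at −0.38 and 0.60 with its dimmer probes. Nfkbia, Tnfaip3, Nfkbie, Nfkbiz and Nfkbib were picked after their values were seen. In the values given here, 13 of the 24 adaptor genes and 7 of the 17 NF-kB and IKK genes were above 0.

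Lymphoid chemokine and adhesion genes, some of which depend on TNF and lymphotoxin signals, were all above 0, against 40.7% of all genes. With scaling on each array's median or with normexp, 5 of the 6 were above 0. The 6 measured of 8 had a median of 0.36, and Icam1, an adhesion gene induced by TNF in endothelium, was the only one past 2-fold, with signals of 804 in knockout-labelled spleen and 148 in wild-type spleen (1.92 ± 0.24). Cxcl12 was at 0.67 ± 0.20 and Cxcl13, the chemokine gene of B cell follicles, at 0.42 ± 0.20. Madcam1 (0.29 ± 0.20), Ccl19 (0.20 ± 0.20) and the adhesion gene Vcam1 (0.05 ± 0.20) differed by less. Markers of lymphoid stroma, which share 3 of these measured genes, had a median of 0.19. Of 10 markers 7 were above 0 and 3 below, the lowest at −0.43. The largest differences were those of Fcer2a, which is also among the B cell markers, and Col1a1 (0.93). The part of stromal cell numbers was not tested. Among TNF superfamily genes outside the list of 34, 10 of 12 were measured. The 9 of them above background on both arrays had a median of −0.38. With Tnfrsf22, above background only in knockout-labelled spleen and entered at its lower bound, the median was at least −0.20. Tnfrsf23, a mouse decoy receptor gene of TRAIL, was at least 2-fold lower, with signals of 304 in knockout-labelled spleen and 471 in wild-type spleen (−1.15 ± 0.21). Fasl, the Fas ligand gene of cytotoxic cells, was at −0.57 ± 0.21 and Tnfsf15 at −0.48 ± 0.23.

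**Figure D5:**
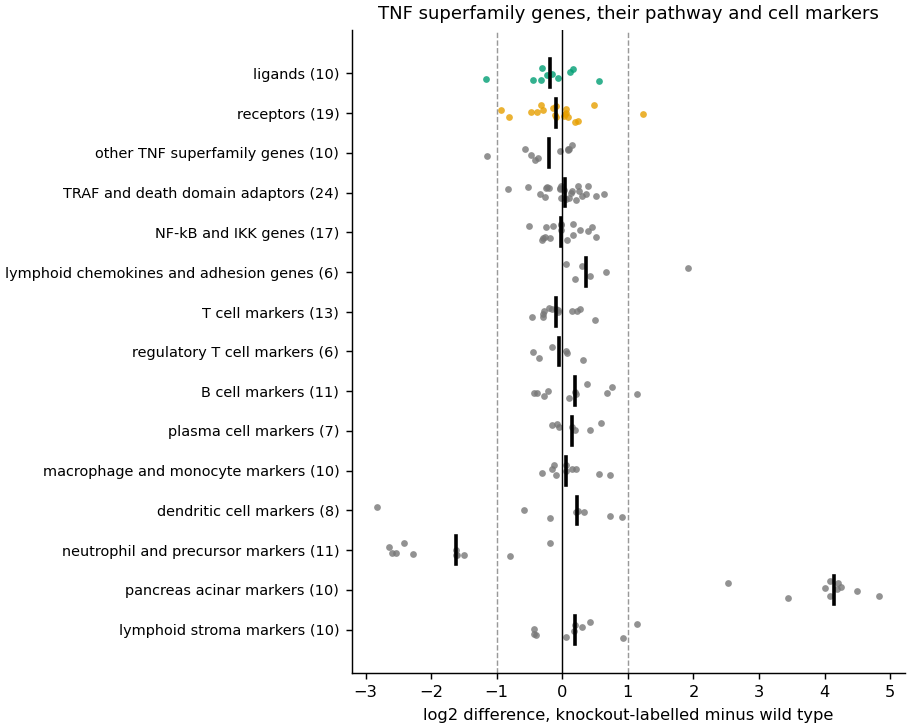
Difference between the arrays (log2, knockout-labelled minus wild type, x axis) for the measured genes of each list, 1 point per gene with the number of genes in brackets and the median as a bar; dashed lines mark 2-fold. TNF ligands (median −0.19) and receptors (−0.09) lie around 0, beside pancreas markers at 4.14 and neutrophil and precursor markers at −1.62.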

How the data were processed

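Per the labels' protocols, total RNA from fresh spleens was column-cleaned and labelled with Cy3. The deposited scanner files give an intensity for each spot. Feature Extraction 11.0.1.1 wrote them under protocol GE1_1100_Jul11, with probe positions on mm9, per the file headers. The value table that the authors deposited holds log2 values, and its steps are not given in the sources used here. No depth exists for arrays, and their number limits the precision.

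Control spots and spots called outliers by the software (132 on the knockout-labelled array, 110 on the wild-type array) were left out, and no spot was saturated. Log2 processed signals of a probe's spots were averaged (39420 probes), and each array's 75th percentile was subtracted. Probe accessions, versions dropped, were looked up among RefSeq transcripts of GRCm38.p6, which named 27226 probes. The brightest probe well above background on at least 1 array represented a gene; where 1 array alone was above background the difference is a bound, written "at least". Errors of spots were treated as independent. Promoter sequences are from RefSeq, build GRCm38.p6. The steps were tested on simulated arrays. Tools were Python 3.11.15, numpy 2.4.6, pandas 2.3.3 and limma 3.58.1.

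The genes, lists and alternatives were chosen with earlier results of these data known. All 34 members were named. From other lists, genes past 2-fold and at most the 3 largest differences (2 for cell markers) were named. No gene was named from the pancreas, neutrophil, macrophage and dendritic cell marker lists, some of which hold genes past 2-fold. Nfkbia, Tnfaip3, Nfkbib, Nfkbie, Nfkbiz, Ccl19, Madcam1, Vcam1, Tnfsfm13, Tnfsf18 and Tnfrsf22 were named after their values were seen. Alternatives were other scalings, quantile normalization, a loess trend (span 0.3), normexp with offset 50, other filters, the median over probes, outlier spots kept and the deposited table. Normexp used the median spot signal, since the files hold no mean signal.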

Additional observations from a re-analysis of the deposited data

How the results depend on the processing

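The 10 alternatives changed 1 setting each, except for normexp and the deposited table. Normexp also took the median spot signal as input. The deposited table replaced the signals and their scaling, while the background calls and the assignment of probes to genes were kept. Tnfrsf21 stayed at least 2-fold higher in each (1.08 to 1.38) and Tnfsf12 stayed below 0 in each (−1.28 to −0.36), but none of them used its dimmer probe alone, which was at 0.44. The count of 1 gene at least 2-fold lower became 0 when probes of a gene were summarised by their median, where the opposed probes of Tnfsf12 average, and 2 with scaling on each array's median, where Tnfrsf9 reached −1.02. Tnfrsf9 and Tnfrsf4 stayed below 0 in all 10 (−1.02 to −0.61 and −0.90 to −0.66), and Tnf stayed above 0 (0.32 to 0.71). Of 29 genes, 17 kept their sign in every alternative, and 21 did relative to the median of all genes. Scaling on probes above background on both arrays shifted the median over all genes by 0.15, and the median of the TNF genes was 0.043 instead of −0.10; taken relative to the median gene, which a plain rescaling cannot alter, it ranged between −0.065 (median over probes) and 0.034 (quantile normalization). Of all genes at 2-fold, 51.7% were higher, against 39.0% with scaling on the median and 71.0% with scaling on probes above background on both. Of all genes 290 were 2-fold higher and 271 lower, against 150 and 177 with normexp, 445 and 182 with scaling on probes above background on both, and 613 and 699 with no filter on dim probes. The median was −0.29 to −0.05 over ligands, −0.18 to 0.06 over receptors and −0.42 to −0.18 over the T cell costimulation group. Signals near background limit Tnfrsf14, Tnfsf8 and Tnfrsf13b, whose errors reached 0.30. No paired analysis was possible because each group has 1 array.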

Other observations

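Several TNF superfamily genes are neighbours in the RefSeq order of protein-coding genes, and neighbours did not share a direction in every cluster. In the cluster of Ltb, Tnf and Lta, the differences were −0.31, 0.57 and −0.07. Tnfrsf4 and Tnfrsf18, which are adjacent, were at −0.81 and −0.48. Tnfsf18, the GITR ligand gene, and Fasl, which are adjacent, were at −0.42 and −0.57. Tnfsf15 and Tnfsf8 are adjacent and were at −0.48 and 0.12. Tnfrsf26 and Tnfrsf23 lie on either side of Tnfrsf22 and were at 0.24 and −1.15, while Tnfrsf22 reached the background threshold only in knockout-labelled spleen, with no fold. Cd27, Ltbr and Tnfrsf1a, each 1 gene apart, were at 0.05, −0.12 and 0.06.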
